A study of Mus musculus with 50 samples.

Results

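The genes described are 10 cytokine receptor chains, Il2ra, Il2rb, Il2rg, Il7r, Il4ra, Il21r, Il15ra, Il12rb1, Il12rb2 and Il18r1, chosen by name among the 21647 genes counted, and 10 of 10 were found. They were measured by mRNA sequencing in splenic CD8+ T cells of 5 knockout mice (labelled KO) and 5 wild-type mice (labelled WT), all on a background labelled C567BL/6J and all 10 weeks old. Cells were pulled out with magnetic beads against CD8a and sequenced at 0h (naive) or after 2, 6, 12 or 24 hours of culture on plate-bound anti-CD3e with soluble anti-CD28, in medium with serum. All 5 times of an animal carry its mouse number, so each genotype has 5 independent mice followed over 5 times, 50 libraries in all. The labels give no promoter or Cre driver for the knockout and do not say whether the WT mice were littermates.

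Each of these chains is a part of a surface receptor. The alpha chain Il2ra (CD25) raises the affinity for interleukin-2 of the signalling pair Il2rb and Il2rg, and Il2rg, the common gamma chain, is shared with Il7r, Il4ra, Il21r and the interleukin-15 receptor, in which Il15ra presents the ligand to the same Il2rb and Il2rg pair. Il12rb1 and Il12rb2 form the interleukin-12 receptor, and Il18r1 binds interleukin-18. In CD8+ T cells Il7r is a survival receptor of resting cells, high-affinity interleukin-2 binding is a hallmark of activation, and the interleukin-12 and interleukin-18 receptors carry inflammatory signals that favour interferon-gamma production.

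Library totals ran from 9571625 to 31293872 counted reads with a median of 23548632, and 13294 genes, all 10 chains among them, had enough counts to be tested. Levels are counts scaled to depth (CPM) with library sizes scaled by TMM. Changes are on the log2 scale from edgeR's quasi-likelihood test over all 50 libraries, called where the Benjamini-Hochberg adjusted p over all genes tested was under 0.05. By Cd8a and Cd4 the CD8 label held in the naive cells. Cd8a stood at 1302 to 1546 CPM in KO mice and at 1658 to 2805 CPM in WT mice 2, 3 and 5. Cd4 stood at 0.514 to 1.38 and 0.156 to 1.16 CPM in those mice. Genes of other cells were present too. In the same mice 8 B cell genes summed to 72.7 to 358 and 31.5 to 248 CPM at 0h. At 24h they summed to 13.3 to 25.0 and 9.95 to 25.8 CPM. The sums of 10 dendritic cell genes were 287 to 809 and 134 to 946 CPM at 0h. At 24h these were 204 to 216 and 174 to 205 CPM. The part of such cells in the levels of the chains was not tested. WT mice 1 and 4 stood apart from all other animals. At 0h their summed level of 12 immature thymocyte genes was 2872 and 2269 CPM, against 431 to 683 CPM in KO mice and 299.7 to 676 CPM in WT mice 2, 3 and 5. In mice 1 and 4 the sum of 10 proliferation genes was 5380.4 and 4336 CPM, against 258 to 978 CPM in KO mice and 113 to 163 CPM in WT mice 2, 3 and 5. Their Cd8a stood at 288 and 477 CPM and their Cd4 at 8.16 and 14.1 CPM. Tests of the chains that use WT libraries are given with all 5 WT mice and again without mice 1 and 4, which leaves 3 WT mice. Where values come from 1 of these sets it is named. The naive library of WT mouse 3 also stood out, with 23.8% of its counts in its 50 most counted genes, against 8.83% to 14.8% in the other naive libraries. In bulk RNA, fewer cells that express a gene and less of its RNA per cell cannot be told apart.

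**Figure D1:**
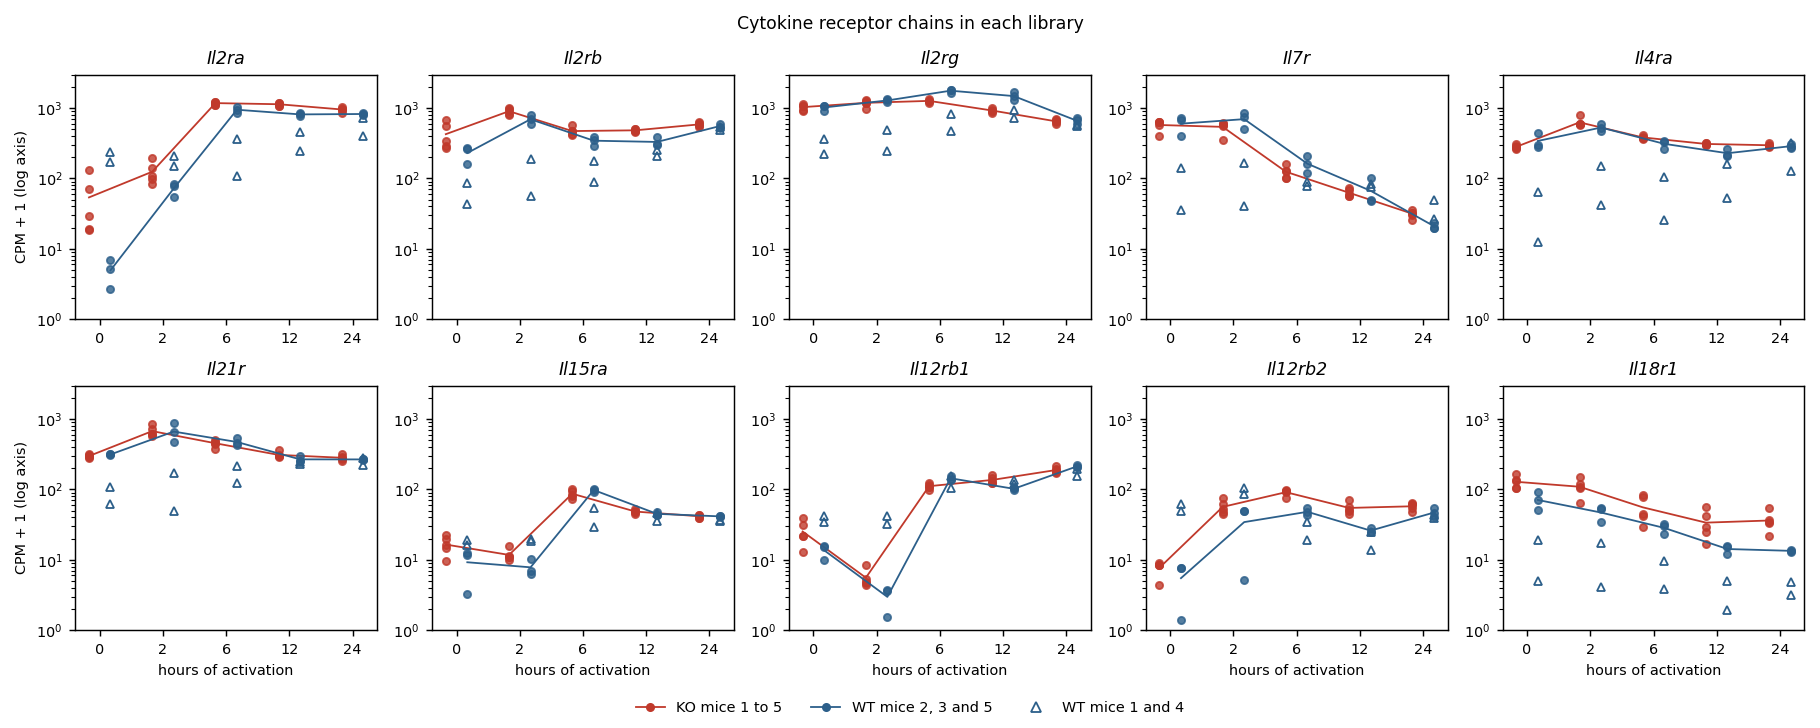
Level of each chain in each library, as CPM plus 1 on a log axis against hours of activation, with KO mice in red and left of WT mice in blue; open triangles are WT mice 1 and 4, and lines join the means of the 5 KO mice and of WT mice 2, 3 and 5. Il2ra of KO mice stood at 17.3 to 131 CPM at 0h and at 1113 to 1236 CPM at 6h, and the triangles lie below the other WT mice for Il18r1 at every time.

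The interleukin-2 receptor alpha chain made the largest gain of the 10 chains in KO cells and, without mice 1 and 4, in WT cells. Il2ra rose in KO cells by a log2 change of 4.48 ± 0.79 (SE; adjusted p = 1.0e-05) at 6h, 4.42 at 12h and 4.18 at 24h. In KO mice 1 to 5 it stood at 131, 17.3, 18.1, 69.6 and 28.2 CPM at 0h, at 191, 98.0, 83.2, 138 and 108 CPM at 2h and at 1113, 1236, 1236, 1176 and 1122 CPM at 6h. From 6h on every KO library lay above every KO library of 0h and 2h, and at 12h and 24h the KO levels were 1072 to 1198 and 852 to 1049 CPM. Naive KO mice differed from each other, with mice 1 and 4 high. In WT mice 2, 3 and 5 it stood at 1.71, 5.88 and 4.24 CPM at 0h, 53.4, 82.4 and 76.8 CPM at 2h and 862, 1029.6 and 950.0 CPM at 6h. WT mice 1 and 4 began high and ended low, with 234 and 171 CPM at 0h, 107 and 368 CPM at 6h and 399 and 719 CPM at 24h. With all 5 WT mice the log2 change was 2.99 ± 0.74 (SE; adjusted p = 0.0012) at 6h and 3.10 at 24h, and without mice 1 and 4 it was 7.98 ± 0.58 (SE; adjusted p = 8.2e-14) and 7.78. The early step at 2h was 1.20 (adjusted p = 0.0025) in KO cells and 4.23 (adjusted p = 1.9e-08) in WT cells without those 2 mice. Over all libraries it was not called, at 1.23 (adjusted p = 0.16) in KO cells and 0.44 (adjusted p = 0.69) in WT cells.

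Il2ra lies on chromosome 2 of GRCm38 (11642807 to 11693193, plus strand), and its neighbour among the chains, Il15ra, begins 12096 bases beyond its end. The sequences upstream of these neighbours are shown because both genes stood higher at 6h than at 0h in both genotypes. Each is the RefSeq window (GRCm38.p6) of 250 bases before a transcript start (for Il15ra the first of 2), 5′ to 3′ on the gene's strand, chr2:11642542-11642791 for Il2ra and chr2:11705043-11705292 for Il15ra. Capitals mark matches, on either strand, to 4 motifs, which may overlap: kappaB (GGGNNNNNCC), the NFAT core (GGAAA), AP-1 (TGANTCA) and STAT (TTCNNNGAA).
Il2ra: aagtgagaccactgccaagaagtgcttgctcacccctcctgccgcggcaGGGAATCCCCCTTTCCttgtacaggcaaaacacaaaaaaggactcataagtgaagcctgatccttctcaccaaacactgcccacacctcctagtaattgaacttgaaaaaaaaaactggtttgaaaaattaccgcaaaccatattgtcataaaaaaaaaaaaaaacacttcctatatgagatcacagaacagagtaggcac
Il15ra: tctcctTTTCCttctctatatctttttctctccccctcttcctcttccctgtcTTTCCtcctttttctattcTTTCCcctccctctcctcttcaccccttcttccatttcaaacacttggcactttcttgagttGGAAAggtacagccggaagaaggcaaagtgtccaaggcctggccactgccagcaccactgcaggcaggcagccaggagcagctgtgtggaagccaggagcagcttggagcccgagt
The Il2ra window holds 2 overlapping kappaB matches directly followed by an NFAT core match, and the first Il15ra window holds 4 NFAT core matches. The second Il15ra window, not shown, holds 1 AP-1 match, 1 kappaB match and 0 NFAT core matches. Among 32841 RefSeq windows of this length 45.8% hold a kappaB match and 55.6% an NFAT core match, so either is common. A window was found for 8 of the 10 chains, 11 windows in all.

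Il2rb, the beta chain through which both interleukin-2 and interleukin-15 signal, peaked early. KO mice 1 to 5 had 561, 271, 292, 335 and 666 CPM at 0h and 825, 1005, 799.6, 961 and 922 CPM at 2h. WT mice 2, 3 and 5 had 262, 158 and 268 CPM at 0h and 701, 593 and 785 CPM at 2h. All 5 KO libraries of 2h lay above all those of 0h, as did the 3 WT libraries, and naive KO mice 1 and 5 were the highest of the naive mice. The log2 change at 2h was 1.09 ± 0.40 (SE; adjusted p = 0.029) in KO cells and 1.51 ± 0.41 (SE; adjusted p = 0.0041) in WT cells (1.59 without mice 1 and 4). At 6h levels stood at 411 to 574 CPM in KO mice and 291 to 387 CPM in WT mice 2, 3 and 5. At 24h they stood at 546 to 627 and 522 to 600.3 CPM, with a log2 change from 0h of 0.46 (adjusted p = 0.33) in KO cells and 1.72 (adjusted p = 7.8e-04) in WT cells over all libraries. In the fit without the 2 WT mice these were 0.47 (adjusted p = 0.015) and 1.28 (adjusted p = 6.6e-06). The KO call at 2h was lost when KO mouse 2, 3 or 4 was left out, at 0.92 (adjusted p = 0.14), 1.02 (adjusted p = 0.1) and 0.99 (adjusted p = 0.11). With mouse as a block, the WT change was called at 6h and 12h as well, at 0.75 (adjusted p = 0.039) and 1.11 (adjusted p = 0.0031).

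Il2rg, the common gamma chain (chromosome X, 101264378 to 101268255, minus strand), was the most abundant of the 10 chains per length of exon at every time, in KO mice and in WT mice. At 0h, 6h and 24h it stood at 905 to 1158, 1197 to 1328 and 598 to 689 CPM in KO mice and at 913 to 1083, 1659.6 to 1829.6 and 594 to 711 CPM in WT mice 2, 3 and 5. Over all libraries only the WT change at 6h was called, at 0.86 ± 0.34 (SE; adjusted p = 0.038), and leaving out any mouse but WT mouse 1 took that call away, with values of 0.79 to 0.89 (adjusted p = 0.053 to 0.11). Without WT mice 1 and 4 it rose at 6h, with a log2 change of 0.27 (adjusted p = 0.0067) in KO cells and 0.78 (adjusted p = 1.8e-07) in WT cells, and fell at 24h, with -0.66 (adjusted p = 2.2e-08) in KO cells and -0.63 (adjusted p = 7.3e-06) in WT cells. At 24h in KO cells it was -0.67 (adjusted p = 0.083) over all libraries, -0.67 (adjusted p = 0.0084) when WT mouse 1 alone was left out and -0.66 (adjusted p = 0.004) with mouse as a block, a fit that also called the WT change at 12h, at 0.92 (adjusted p = 3.3e-04). WT mice 1 and 4 had 221 and 358 CPM at 0h, below all other mice. On the annotation Il2rg shares 728 exonic bases with Gm20489 on the same strand, so its counts are uncertain by that overlap.

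Il7r, the alpha chain of the interleukin-7 receptor (chromosome 15, 9505788 to 9530176, minus strand), was the chain that fell most, and it was lower at each time from 6h on. KO mice 1 to 5 had 576, 639, 629, 625 and 402 CPM at 0h and 564, 582, 596, 610.3 and 348 CPM at 2h. The same mice had 161, 101, 101, 126 and 128 CPM at 6h, 72.3, 55.1, 67.0, 54.8 and 58.6 CPM at 12h and 29.7, 24.6, 31.6, 31.6 and 35.1 CPM at 24h. The libraries of 6h, 12h and 24h did not overlap with each other or with those before, while 0h and 2h overlapped. The log2 change from 0h was -2.22 ± 0.50 (SE; adjusted p = 2.8e-04) at 6h, -3.22 ± 0.52 (SE; adjusted p = 2.0e-06) at 12h and -4.23 ± 0.54 (SE; adjusted p = 3.1e-08) at 24h. WT mice 2, 3 and 5 had 674, 399 and 726 CPM at 0h and 22.6, 18.7 and 18.8 CPM at 24h, a log2 change of -3.89 ± 0.53 (SE; adjusted p = 2.6e-07) with all WT mice and -4.90 without mice 1 and 4. Those 2 mice began far below the rest, at 35.2 and 141 CPM, and ended at 47.6 and 25.7 CPM.

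Il4ra and Il21r, the private chains of the interleukin-4 and interleukin-21 receptors, are neighbours on chromosome 7, 23954 bases apart on the plus strand, and both had a short peak at 2h. Il4ra stood at 309, 283, 287, 268 and 257 CPM at 0h and 566, 785, 593, 599 and 589 CPM at 2h in KO mice 1 to 5. Il21r stood at 304, 318, 301, 280.1 and 284 CPM in these mice at 0h and at 612, 843, 582, 721 and 609 CPM at 2h. For both genes the 5 KO libraries of 2h lay above all those of 0h. At 12h the KO levels were 297 to 321 CPM for Il4ra and 285 to 358 CPM for Il21r. Il21r rose at 2h by 1.18 ± 0.39 (SE; adjusted p = 0.015) in KO cells and 1.00 ± 0.39 (SE; adjusted p = 0.049) in WT cells (1.07 without mice 1 and 4). The KO call was lost without KO mouse 2 or 4, at 1.11 (adjusted p = 0.066) and 1.13 (adjusted p = 0.061), and the WT call without any 1 mouse but WT mouse 1, at 0.79 to 1.11 (adjusted p = 0.068 to 0.21). For Il4ra the 2h change was 1.16 (adjusted p = 0.088) in KO cells and 0.70 (adjusted p = 0.37) in WT cells over all libraries, which missed the threshold. It was 1.13 (adjusted p = 3.6e-11) and 0.62 (adjusted p = 2.2e-04) without WT mice 1 and 4, and the KO change was 1.16 (adjusted p = 0.0013) without WT mouse 1 alone. With mouse as a block Il4ra gave 1.15 (adjusted p = 0.0022) in KO cells and 0.86 (adjusted p = 0.027) in WT cells at 2h, and 1.06 (adjusted p = 0.0061) in WT cells at 24h, and Il21r 0.72 (adjusted p = 0.048) in WT cells at 6h. In these 2 WT mice Il4ra stood at 11.4 and 62.9 CPM at 0h and 51.7 and 158 CPM at 12h, below every other mouse. On the opposite strand Il4ra shares 571 exonic bases with Gm44876.

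Il15ra (chromosome 2, 11705290 to 11734317, plus strand), which holds interleukin-15 at the surface for Il2rb and Il2rg, was low in naive cells and peaked at 6h. KO mice 1 to 5 had 21.4, 13.7, 8.75, 15.1 and 18.4 CPM at 0h, 9.86, 8.77, 9.85, 10.5 and 14.7 CPM at 2h and 73.0, 94.6, 99.4, 81.9 and 80.8 CPM at 6h. In WT mice 2, 3 and 5 it stood at 11.5, 2.31 and 10.8 CPM at 0h and 98.4, 90.8 and 102 CPM at 6h. All libraries of these 8 mice at 6h lay above all of theirs at 0h and 2h. The log2 change was 2.47 ± 0.33 (SE; adjusted p = 8.2e-08) at 6h and 1.39 at 24h in KO cells, and 2.68 ± 0.33 (SE; adjusted p = 3.4e-08) and 1.71 in WT cells, where it was 3.50 and 2.25 without mice 1 and 4. At 12h and 24h it stood at 44.3 to 51.2 and 38.4 to 42.3 CPM in KO mice, and WT mice 2, 3 and 5 had 42.0 to 47.4 and 40.2 to 40.7 CPM. The step down from 6h to 12h was called without WT mice 1 and 4, with -0.84 (adjusted p = 0.0035) in KO cells and -1.18 (adjusted p = 0.0019) in WT cells.

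Il12rb1, the interleukin-12 receptor chain that also serves the interleukin-23 receptor (chromosome 8, 70808449 to 70821424, plus strand), dropped at 2h before it climbed. KO mice 1 to 5 had 37.7, 20.8, 11.7, 20.8 and 30.1 CPM at 0h and 3.45, 3.83, 3.63, 4.36 and 7.54 CPM at 2h. At 6h they had 108, 122, 108, 114 and 98.5 CPM and at 24h 168, 212, 179, 191 and 186 CPM. Every KO mouse was lower at 2h than at 0h, and all KO libraries of 6h and later lay above all earlier ones. The log2 change was -2.41 ± 0.52 (SE; adjusted p = 2.6e-04) at 2h, 2.18 ± 0.51 (SE; adjusted p = 4.4e-04) at 6h and 2.95 ± 0.52 (SE; adjusted p = 8.7e-06) at 24h. Lower values at 2h were also seen in WT mice 2, 3 and 5, with 14.7, 8.96 and 14.3 CPM at 0h, 2.73, 0.534 and 2.65 CPM at 2h and 153, 142 and 134 CPM at 6h. WT mice 1 and 4 had 41.0 and 33.4 CPM at 0h and 41.4 and 31.4 CPM at 2h. The WT change at 2h was -0.50 (adjusted p = 0.49) over all libraries and -2.56 ± 0.32 (SE; adjusted p = 5.2e-08) without them. At 24h it was 3.13 ± 0.53 (SE; adjusted p = 9.1e-06), and 4.05 without them.

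Il12rb2, the signalling chain of the interleukin-12 receptor (chromosome 6, 67291318 to 67376188, minus strand), was already higher at 2h in KO cells. KO mice 1 to 5 had 7.44, 7.51, 3.33, 7.90 and 7.37 CPM at 0h, 43.7, 75.3, 46.9, 50.9 and 60.6 CPM at 2h and 92.4, 94.2, 73.6, 95.0 and 96.9 CPM at 6h. All KO libraries from 2h on lay above all those of 0h, and at 12h and 24h they had 43.4 to 70.8 and 46.2 to 62.4 CPM. The log2 change was 3.04 ± 0.59 (SE; adjusted p = 5.5e-05) at 2h, 3.75 ± 0.61 (SE; adjusted p = 2.4e-06) at 6h and 3.07 at 24h. WT mice 2, 3 and 5 had 6.53, 0.385 and 6.53 CPM at 0h, 48.0, 4.16 and 47.8 CPM at 2h and 46.2, 42.3 and 52.8 CPM at 6h, mouse 3 being the lowest of them each time. WT mice 1 and 4 began high, with 60.5 and 47.8 CPM at 0h, 104 and 85.5 CPM at 2h and 12.7 and 23.8 CPM at 12h. With them no WT change of Il12rb2 was called, the 6h change being 0.66 (adjusted p = 0.36). Leaving out WT mouse 1 alone gave calls at 2h, 6h and 24h, at 1.59 (adjusted p = 0.025), 1.48 (adjusted p = 0.029) and 1.53 (adjusted p = 0.021), leaving out WT mouse 3 gave 1.27 (adjusted p = 0.021) at 2h, and mouse as a block also gave a call at 2h (adjusted p = 0.042). Without both mice it was 3.29 ± 0.50 (SE; adjusted p = 7.6e-07) at 6h and 3.26 ± 0.50 (SE; adjusted p = 7.9e-07) at 24h, and it was called at 2h and 12h as well.

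Of the 10 chains Il12rb2 has the largest exonic overlap with a gene on the opposite strand, 1519 bases shared with Serbp1, which codes for an mRNA-binding protein, and the labels name a stranded library kit, while the strand setting of the counting is not given in the sources used here. Serbp1 stood at 615, 663, 754, 762 and 752 CPM at 0h and 1351, 1555, 1569, 1594 and 1504 CPM at 6h in KO mice 1 to 5. At 2h, 12h and 24h these mice had 663 to 816, 1713 to 1958 and 1591 to 1742 CPM of Serbp1. Their Il12rb2 at these times was 43.7 to 75.3, 43.4 to 70.8 and 46.2 to 62.4 CPM. In naive WT mouse 3 Il12rb2 had 0.385 CPM while Serbp1 had 814 CPM, above the 762 CPM of the highest naive KO mouse. Naive WT mice 1 and 4 had the highest values of both genes at 0h, with 60.5 and 47.8 CPM of Il12rb2 and 1377 and 1190.2 CPM of Serbp1. The 250 bases before the RefSeq start of Il12rb2 (chr6:67376189-67376438, minus strand) are shown because they hold a STAT match, in capitals, and Stat4 carries the interleukin-12 signal.
Il12rb2: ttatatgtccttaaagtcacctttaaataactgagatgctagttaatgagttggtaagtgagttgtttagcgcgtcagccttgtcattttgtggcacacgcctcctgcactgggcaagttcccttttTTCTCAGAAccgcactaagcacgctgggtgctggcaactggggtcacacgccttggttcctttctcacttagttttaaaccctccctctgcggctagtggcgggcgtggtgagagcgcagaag
A STAT match is present in 7.02% of the 32841 windows and in 3 of the 11 windows of these chains.

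Il18r1, the binding chain of the interleukin-18 receptor (chromosome 1, 40465552 to 40500854, plus strand), fell in both genotypes. KO mice 1 to 5 had 162, 104, 137, 104 and 129 CPM at 0h, 55.0, 15.8, 28.2, 24.2 and 40.5 CPM at 12h and 53.5, 20.7, 35.7, 32.3 and 33.7 CPM at 24h. All KO libraries of 12h and 24h lay below all those of 0h, and mouse 1 was the highest KO mouse and mouse 2 the lowest at 2h, 12h and 24h. WT mice 2, 3 and 5 had 70.2, 49.5 and 89.9 CPM at 0h and 11.9, 13.0 and 12.3 CPM at 24h, and WT mice 1 and 4 had 3.96 and 18.1 CPM at 0h and 2.18 and 3.91 CPM at 24h. The log2 change was -1.96 ± 0.64 (SE; adjusted p = 0.0092) at 12h and -1.86 at 24h in KO cells, and -2.38 ± 0.65 (SE; adjusted p = 0.0033) and -2.42 in WT cells (-2.45 and -2.50 without mice 1 and 4). At 6h it was -1.22 (adjusted p = 0.1) in KO cells and -1.31 (adjusted p = 0.094) in WT cells over all libraries. Without WT mouse 1 alone these were -1.24 (adjusted p = 0.0091) and -1.37 (adjusted p = 0.012), and with mouse as a block they were -1.31 (adjusted p = 2.2e-07) and -1.15 (adjusted p = 4.3e-06), with -0.46 (adjusted p = 0.041) in WT cells at 2h.

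**Figure D2:**
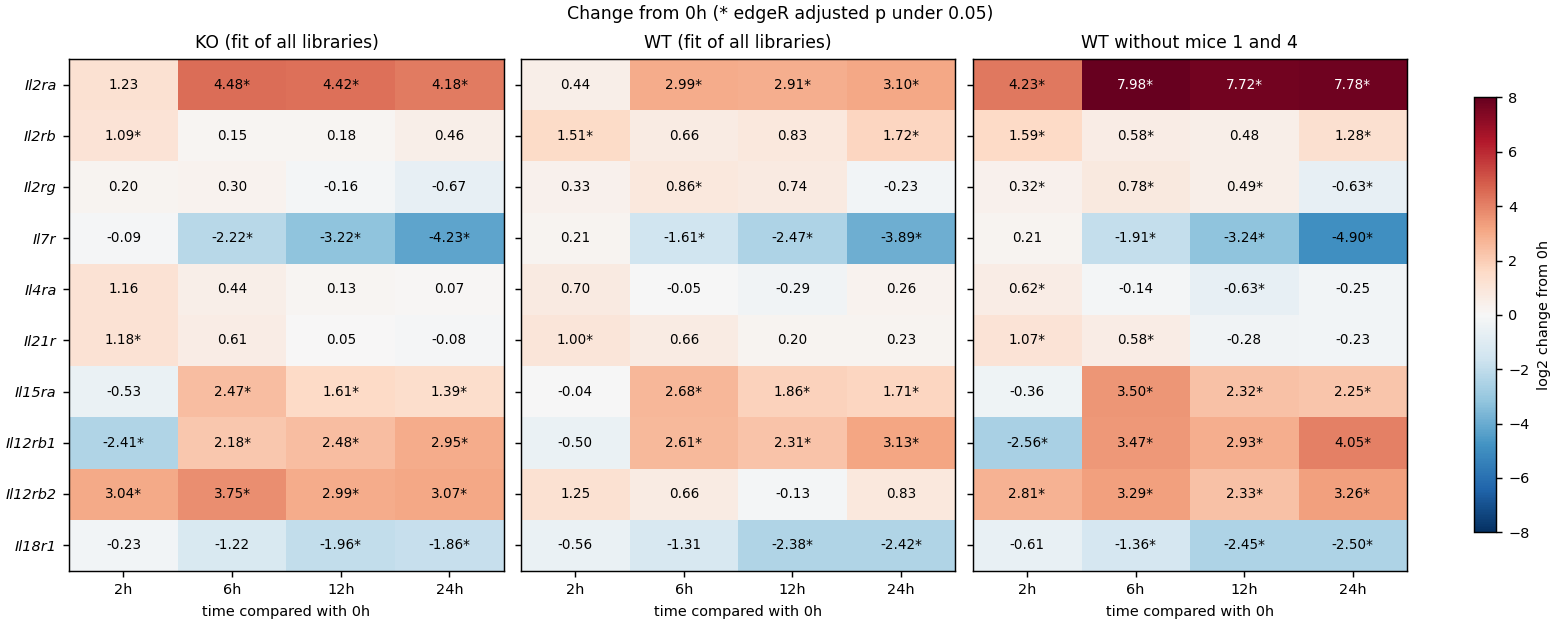
Log2 change from 0h of each chain at 2h, 6h, 12h and 24h, as number and colour, in KO cells, in WT cells over all libraries, and in WT cells without mice 1 and 4; an asterisk marks an edgeR adjusted p under 0.05. At 24h Il7r has the largest negative change in each panel (-4.23 in KO cells) and Il2ra the largest positive one in KO cells (4.18) and in WT cells without mice 1 and 4 (7.78), while Il12rb2 is marked in WT cells only without those mice.

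Activation changed a large part of all genes, so the count of chains is read against that background. In KO cells 4, 5, 6 and 6 of the 10 chains were called at 2h, 6h, 12h and 24h, while 39.9%, 49.2%, 52.8% and 58.7% of all genes tested were. In WT cells the counts were 2, 5, 5 and 6, against 30.2%, 39.9%, 39.4% and 44.1% of all genes. The shares of chains were near those of all genes. Leaving out WT mice 1 and 4, the KO counts were 7, 9, 6 and 8, against 57.6%, 64.6%, 67.1% and 71.2% of all genes. The WT counts were 7, 9, 8 and 8, against 49.7%, 59.8%, 60.2% and 64.6%. The median log2 change of the 10 chains at 6h was 0.52 in KO cells and 0.66 in WT cells, while that of all genes was -0.044 and -0.048. In the fit without WT mice 1 and 4 the chains had 0.50 in KO cells and 0.68 in WT cells, and all genes -0.069 and -0.09. The later times share the 0h libraries of their genotype.

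The chains peaked at different times, here in KO mice and in WT mice without mice 1 and 4. Il2rb, Il4ra and Il21r had their highest mean at 2h, Il2ra, Il2rg, Il15ra and Il12rb2 at 6h, and Il12rb1 at 24h, in both genotypes. Il18r1 was highest at 0h in both genotypes, and Il7r at 0h in KO mice and at 2h in WT mice, times that did not differ beyond their spread. The log2 change of Il7r at 2h was -0.12 (adjusted p = 0.63) in KO cells and 0.21 (adjusted p = 0.52) in WT cells. Over all 5 WT mice the highest mean was at 24h for Il2ra and Il2rb and at 2h for Il12rb2, and at the times given above for the other chains. Several other neighbours in this order did not differ either. For Il2ra the steps between 6h, 12h and 24h were not called in KO cells with or without WT mice 1 and 4, nor were the steps of Il12rb1 between 6h and 12h and between 12h and 24h. For Il12rb2 in KO cells no neighbours in the order of the levels at 2h, 6h, 12h and 24h were told apart. Without WT mice 1 and 4 the highest and next time were not told apart in WT cells for several chains. These were Il2ra (adjusted p = 0.73), Il2rb (adjusted p = 0.22), Il2rg (adjusted p = 0.053), Il12rb1 (adjusted p = 0.08) and Il12rb2 (adjusted p = 0.97). In KO cells the same held for Il2rg at 6h and 2h (adjusted p = 0.36). It held for Il18r1 at 0h and 2h in KO cells (adjusted p = 0.43) and WT cells (adjusted p = 0.16).

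Set per kilobase of exon, so that genes can be compared, the order of the chains at 24h was not that of naive cells. In KO mice at 0h Il2rg stood at 432 ± 44.8 CPM per kb, Il7r at 123 ± 21.3, Il2rb at 99.1 ± 41.4 and Il2ra at 9.24 ± 8.49 (SD, n = 5). At 24h the same genes stood at 272 ± 14.8, 6.54 ± 0.824, 136 ± 7.81 and 167 ± 12.5 CPM per kb. In WT mice 2, 3 and 5 they stood at 427 ± 39.2, 129 ± 37.7, 53.4 ± 14.4 and 0.690 ± 0.367 at 0h, and at 276 ± 25.0, 4.30 ± 0.471, 129.6 ± 9.41 and 144 ± 3.35 at 24h (SD, n = 3). In naive cells Il2ra was the lowest chain in WT mice 2, 3 and 5 and above only Il12rb1, Il15ra and Il12rb2 in KO mice, and at 24h its mean was next below Il2rg in both genotypes. Over all 5 WT mice naive Il2ra stood at 14.6 CPM per kb, above Il18r1, Il12rb2, Il12rb1 and Il15ra. Il7r was next below Il2rg in naive cells and at 24h had the lowest mean in KO mice and, above Il18r1, the lowest but 1 in WT mice 2, 3 and 5. The chains of the interleukin-12 receptor stood at 45.6 ± 3.93 (Il12rb1) and 14.9 ± 1.84 (Il12rb2) CPM per kb at 24h in KO mice, and at 51.6 ± 1.35 and 12.1 ± 1.85 in WT mice 2, 3 and 5.

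**Figure D3:**
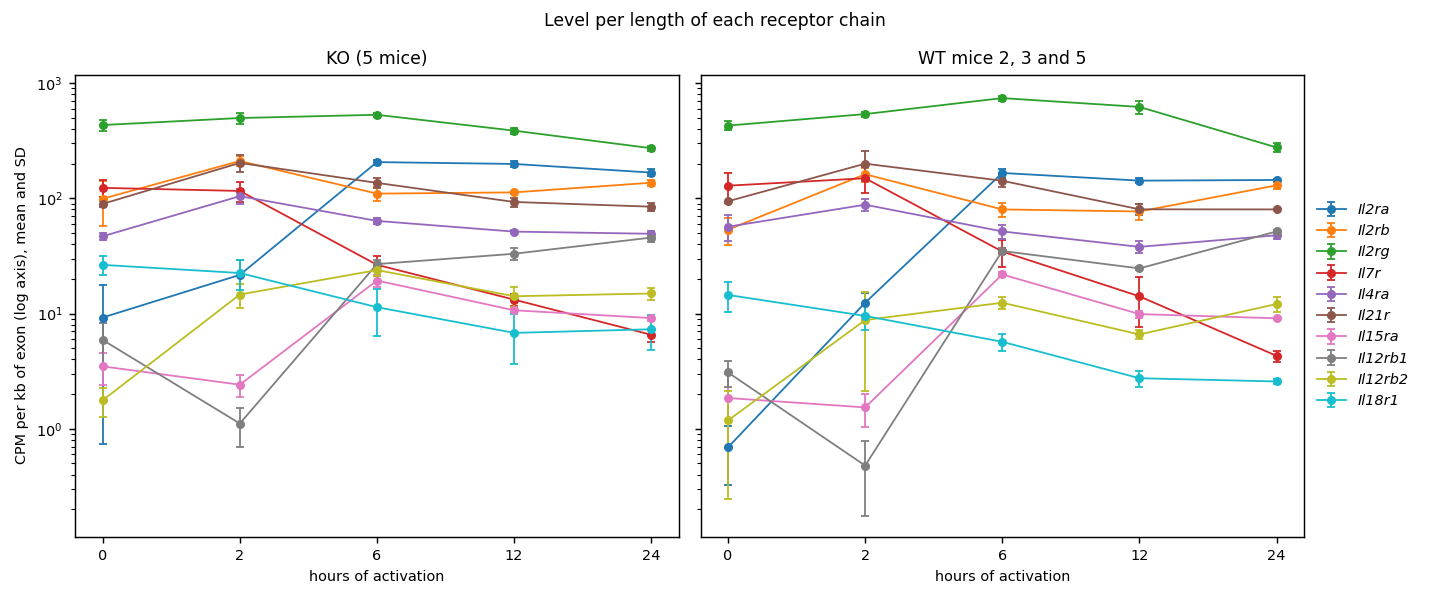
Mean level of each chain in CPM per kilobase of exon on a log axis, with the SD as bars, against hours of activation, in the 5 KO mice (left) and in WT mice 2, 3 and 5 (right). Il2rg lies on top at every time in both panels, and the lines of Il2ra and Il7r cross between 2h and 6h.

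The comparison the genotypes allow is KO against WT at each time. Over all 50 libraries 2, 1, 0, 1 and 0 of the 10 chains were called at 0h, 2h, 6h, 12h and 24h, while 7.93%, 11.8%, 10.1%, 13.1% and 0.0451% of all genes were. Without WT mice 1 and 4 the counts were 4, 2, 1, 5 and 0, against 22.4%, 4.1%, 4.16%, 23% and 0.0453%. At 24h, where no chain was called, 1 of 10 had an unadjusted p under 0.05 with edgeR, and 0 were called with DESeq2 (1 unadjusted). At 6h over all libraries 3 had an unadjusted p under 0.05, and DESeq2 called 0 while limma-voom with mouse as a random block called 1. The chains are taken in turn here, since several of these calls differed with and without the same 2 WT mice.

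Naive KO cells had more Il2ra than naive WT cells once WT mice 1 and 4 were left out. The KO values of 131, 17.3, 18.1, 69.6 and 28.2 CPM did not overlap with the 1.71, 5.88 and 4.24 CPM of WT mice 2, 3 and 5, a log2 difference of 3.82 ± 0.48 (SE; adjusted p = 7.7e-06). WT mice 1 and 4, at 234 and 171 CPM, were above every KO mouse, and with them the difference was -0.66 (adjusted p = 0.56), of the opposite sign. The sum of the proliferation genes was also higher in naive KO mice, at 262, 258, 372, 563 and 978 CPM in KO mice 1 to 5. In WT mice 2, 3 and 5 it was 142, 113 and 163 CPM. Among KO mice, mouse 1 had the most Il2ra and mouse 5 the highest sum of proliferation genes. The part of these genes in the result was not tested. Foxp3, the defining gene of regulatory T cells, which carry CD25 at rest, stood at 0.565 to 1.19 CPM in naive KO mice. In these WT mice it stood at 0.817 to 1.36 CPM. The sum of the 6 CD4 and regulatory T cell genes was 48.1 to 140.3 and 48.5 to 88.3 CPM. The 12 immature thymocyte genes summed to 431 to 683 and 299.7 to 676 CPM. Of these Mns1 was higher in KO mice with no overlap (22.3 to 53.5 and 13.9 to 18.0 CPM). The others overlapped, with Rag1 at 0.0723 to 12.9 and 0.117 to 0.289 CPM and Cd1d1 at 24.6 to 47.9 and 41.2 to 50.6 CPM. The part of these 2 lists in the Il2ra difference was not tested either. From 2h on no difference of Il2ra was called in either fit, although at 6h, 12h and 24h every KO library lay above every WT library. At 12h KO mice had 1072 to 1198 CPM and WT mice 2, 3 and 5 769.8 to 843 CPM, a log2 difference of 0.52 (adjusted p = 0.35) without WT mice 1 and 4.

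Il2rb was higher in naive KO cells in both fits. The KO mice had 561, 271, 292, 335 and 666 CPM and WT mice 1 to 5 had 42.0, 262, 158, 85.4 and 268 CPM, so all KO mice lay above all WT mice, the closest pair being a KO mouse at 271 and a WT mouse at 268 CPM. The log2 difference was 1.38 ± 0.41 (SE; adjusted p = 0.033) over all libraries and 0.89 ± 0.20 (SE; adjusted p = 0.0028) without WT mice 1 and 4. The call over all libraries was lost when any 1 KO mouse or WT mouse 4 was left out, at 1.17 to 1.49 (adjusted p = 0.052 to 0.13). At 12h it was 0.73 (adjusted p = 0.22) and 0.59 (adjusted p = 0.032), and at 24h 0.12 (adjusted p = 1) and 0.081 (adjusted p = 1). The 12 memory and effector CD8 T cell genes, which mark cells that carry much Il2rb, summed to 2023, 1263, 2269, 1557 and 2169 CPM in naive KO mice 1 to 5 and to 981, 2402 and 1150.5 CPM in naive WT mice 2, 3 and 5, with all 12 detected in both. The ranges overlapped, as the sum of WT mouse 3 lay above that of every KO mouse. The sums of WT mice 2 and 5 lay below those of every KO mouse. Of the 12 genes 4 were higher in KO mice with no overlap. These were Cxcr3 (34.4 to 137 CPM in KO mice and 10.3 to 19.4 CPM in these WT mice), Ly6c2 (169.8 to 559 and 57.4 to 101), Cd44 (49.7 to 116 and 17.1 to 44.5) and Id2 (57.2 to 92.0 and 12.1 to 46.5). The others overlapped. Among them Klrd1 stood at 103 to 240.0 CPM in KO mice and 194 to 275 CPM in these WT mice. Nkg7 stood at 476 to 797 and 414 to 1452 CPM. The NK cell genes, which share Eomes with the memory and effector list, summed to 130.2, 73.4, 117, 91.6 and 226 CPM in KO mice. In these WT mice they summed to 61.4, 66.5 and 72.2 CPM. Eomes alone stood at 53.8 to 199 CPM in KO mice and 39.6 to 56.3 CPM in these WT mice. Klrb1b was higher in KO mice with no overlap (1.58 to 2.29 and 0.505 to 1.06 CPM), and Klri2 was lower (0 to 0.789 and 0.933 to 1.64 CPM). The rest overlapped, with Ncr1 at 0 to 3.72 and 0.771 to 1.23 CPM. The part of either list in the Il2rb difference was not tested.

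Il18r1 was higher in KO cells in point estimate at each time. KO mice stood at 104 to 162 CPM at 0h, 62.3 to 150.5 at 2h, 28.5 to 82.4 at 6h, 15.8 to 55.0 at 12h and 20.7 to 53.5 at 24h. WT mice 2, 3 and 5 stood at 49.5 to 89.9, 33.3 to 53.4, 22.0 to 31.1, 10.9 to 14.6 and 11.9 to 13.0 CPM at these times, and WT mice 1 and 4 lower still. Apart from 6h, where KO mouse 2 lay among WT mice, every KO mouse lay above every WT mouse. The log2 difference was 1.46, 1.78, 1.55, 1.88 and 2.02 over all libraries, called at 12h (adjusted p = 0.046). That call was lost without any 1 KO mouse, WT mouse 3 or WT mouse 4, at 1.61 to 2.05 (adjusted p = 0.05 to 0.14), and the 2h difference was 2.06 (adjusted p = 0.038) without WT mouse 2 and 2.02 (adjusted p = 0.037) without WT mouse 5. Without WT mice 1 and 4 it was 0.87, 1.21, 0.98, 1.35 and 1.51, called at 2h (adjusted p = 0.032) and 12h (adjusted p = 0.0045). At 2h and 12h the memory and effector genes summed to 794 to 1763 and 1236 to 1886 CPM in KO mice and to 639.9 to 722 and 1153 to 1487 CPM in WT mice 2, 3 and 5. The sum of the NK cell genes, which include Eomes of the memory and effector list, was 42.8 to 147 CPM in KO mice at 2h. In these WT mice it was 25.5 to 35.9 CPM at 2h. At 12h it was 127 to 352 CPM in KO mice and 72.1 to 95.5 CPM in these WT mice. Neither pair of ranges overlapped. The part of either list in the result was not tested.

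The common gamma chain and the interleukin-4 receptor chain differed between genotypes in the middle of the course, in opposite directions. Il2rg was lower in KO cells at 12h, with 1002, 932, 923, 915 and 838 CPM in KO mice 1 to 5 against 1478, 1288 and 1678 CPM in WT mice 2, 3 and 5, which did not overlap. The log2 difference without WT mice 1 and 4 was -0.50 (adjusted p = 0.0023) at 6h and -0.65 ± 0.10 (SE; adjusted p = 3.1e-05) at 12h, and over all libraries it was -0.06 (adjusted p = 0.93) and -0.40 (adjusted p = 0.44). At 24h KO and WT mice overlapped again. Il4ra was higher in KO cells at 12h, with 297, 306, 316, 301 and 321 CPM in KO mice 1 to 5 against 214, 257 and 211 CPM in WT mice 2, 3 and 5. That difference was 0.48 ± 0.12 (SE; adjusted p = 0.0047) without WT mice 1 and 4 and 0.79 (adjusted p = 0.34) with them. For Il7r and Il21r no genotype difference was called at any time in either fit, with log2 differences between -0.40 and 0.61. The sum of the 8 mature CD8 T cell genes at 6h was 3517 to 3827 CPM in KO mice and 3969 to 4439 CPM in WT mice 2, 3 and 5. At 12h it was 3654 to 4547 CPM in KO mice and 4859 to 5095 CPM in the same WT mice. It was lower in KO mice with no overlap at both times. The NK cell sums of 12h, given for Il18r1 and including Eomes of the memory and effector list, did not overlap either. The part of these lists in the differences of Il2rg and Il4ra was not tested.

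The interleukin-12 receptor chains and Il15ra gave calls that differed with and without WT mice 1 and 4. Over all libraries Il12rb2 was lower in naive KO cells, with a log2 difference of -1.86 ± 0.56 (SE; adjusted p = 0.037), and Il12rb1 was lower in KO cells at 2h, with -1.80 ± 0.51 (SE; adjusted p = 0.023). Neither call held without WT mouse 1, without WT mouse 4 or without most single KO mice, the values being -1.93 to -1.19 (adjusted p = 0.079 to 0.16) for Il12rb2 and -1.78 to -1.05 (adjusted p = 0.071 to 0.2) for Il12rb1. In both cases the 2 WT mice were the highest libraries, and WT mice 2, 3 and 5 lay within or below the KO range. Without the 2 mice Il12rb2 gave 0.50 (adjusted p = 0.44) at 0h and 1.14 (adjusted p = 0.047) at 12h, and Il12rb1 gave 0.92 (adjusted p = 0.011) at 0h and 1.05 (adjusted p = 0.04) at 2h. At 12h Il12rb2 stood at 50.4, 70.8, 48.2, 55.2 and 43.4 CPM in KO mice 1 to 5 and at 12.7, 27.3, 24.1, 23.8 and 23.5 CPM in WT mice 1 to 5, with no overlap. Over all libraries that 12h difference was 1.27 (adjusted p = 0.12), and without WT mouse 3 it was 1.31 (adjusted p = 0.015) at 12h and 1.27 (adjusted p = 0.018) at 6h. At 2h Il12rb1 stood at 3.45, 3.83, 3.63, 4.36 and 7.54 CPM in KO mice and at 2.73, 0.534 and 2.65 CPM in WT mice 2, 3 and 5. Il15ra differed at 0h by 0.87 (adjusted p = 0.017) without the 2 mice and by 0.41 (adjusted p = 0.41) with them.

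**Figure D4:**
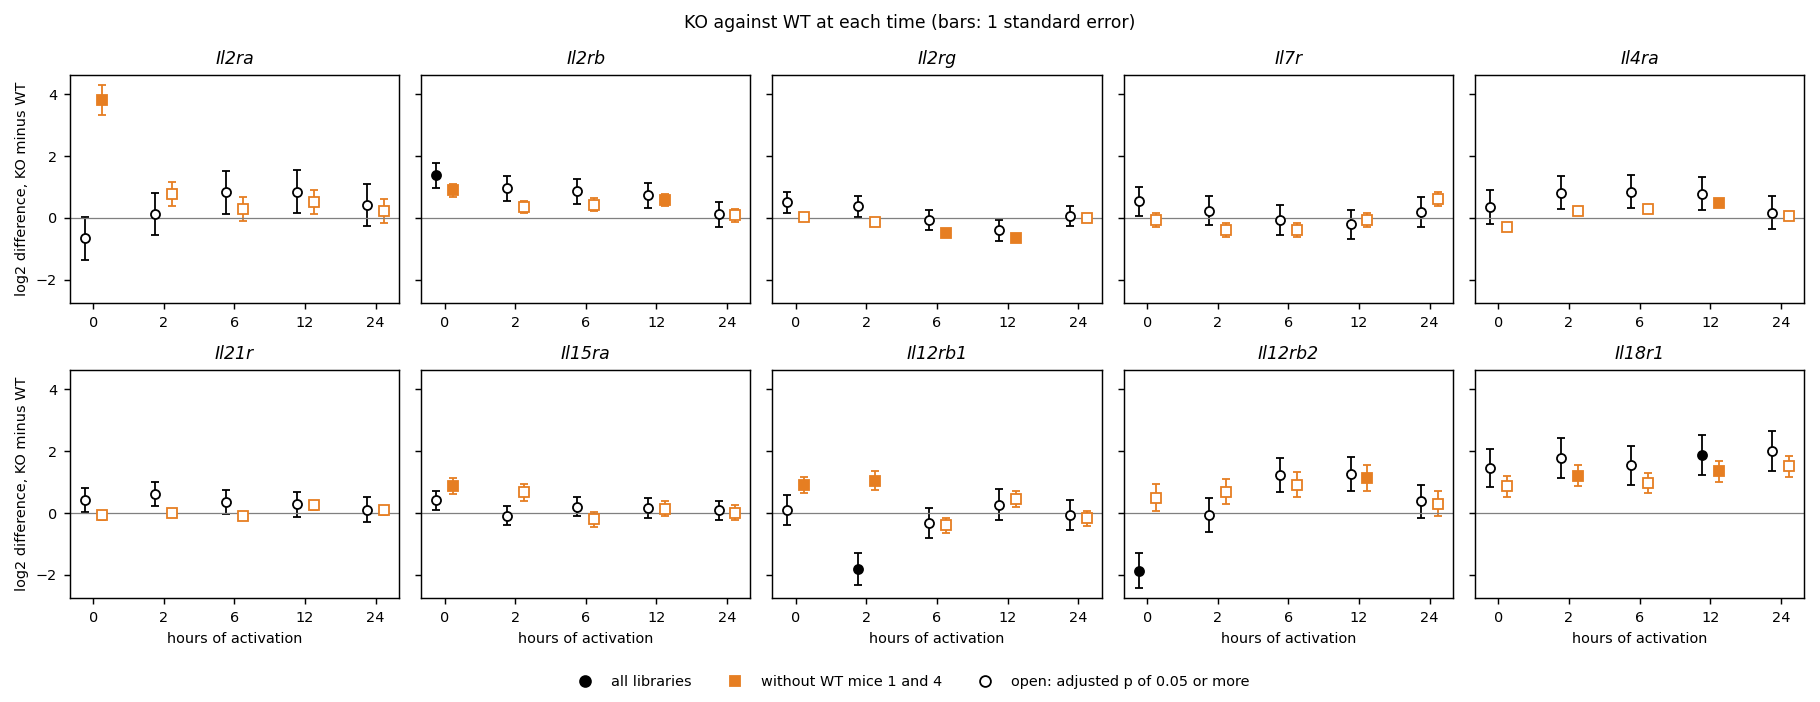
Log2 difference, KO minus WT, of each chain at each time, with 1 standard error as bars; black circles are the fit of all libraries, orange squares the fit without WT mice 1 and 4, and filled symbols mark an edgeR adjusted p under 0.05. The fits part most for Il2ra at 0h (-0.66 and 3.82) and for Il12rb1 at 2h (-1.80 and 1.05), and no symbol is filled at 24h.

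Whether the genotypes differed in their change from 0h was tested as an interaction. Over all libraries 0, 1, 1 and 0 of the 10 chains were called at 2h, 6h, 12h and 24h, while 0.015%, 2.47%, 7.5% and 0.0752% of all genes were. Both calls were Il12rb2, whose change was larger in KO cells by 3.08 ± 0.79 (SE; adjusted p = 0.026) at 6h and 3.12 ± 0.79 (SE; adjusted p = 0.0095) at 12h. Without WT mice 1 and 4 these were 0.42 (adjusted p = 0.7) and 0.64 (adjusted p = 0.49). At 6h it was no longer called when WT mouse 1, WT mouse 4 or any 1 KO mouse was left out, at 2.23 to 3.13 (adjusted p = 0.058 to 0.15), and the 12h call without WT mouse 1, at 2.31 (adjusted p = 0.052). At 24h it was 2.49 (adjusted p = 0.04) without WT mouse 3. With mouse as a block the 6h interaction of Il12rb2 was 2.57 (adjusted p = 0.055), and that of Il2rg at 12h was -1.08 (adjusted p = 0.011), against -0.91 (adjusted p = 0.26) without the block. The fit without WT mice 1 and 4 called 1, 4, 3 and 1 of the chains, against 0.264%, 9.56%, 20.5% and 0.86% of all genes. In the fit without those mice the gain of Il2ra was smaller in KO cells at every time (-3.04, -3.53, -3.30 and -3.60) (adjusted p of 0.014, 8.2e-04, 1.5e-04 and 0.0013), and naive KO mice began above naive WT mice 2, 3 and 5. For Il2rg the interaction was -0.52 (adjusted p = 0.018) at 6h and -0.66 (adjusted p = 8.7e-04) at 12h. Il4ra gave 0.56 (adjusted p = 0.033) and 0.75 (adjusted p = 0.0018) at these times, and Il12rb1 -1.32 (adjusted p = 0.017) at 6h. At 2h and 24h over all libraries, where none was called, 2 of 10 had an unadjusted p under 0.05 each time, and DESeq2 and limma-voom with mouse as a random block called 0.

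The genes whose log2 CPM ran most like each chain over the 50 libraries were looked up among 10408 genes, as a description, since the libraries share mice, times and depth. Il7r ran with S1pr1, the receptor that lets naive T cells leave lymphoid tissue (Pearson r = 0.98, 0.99 in the 40 libraries without WT mice 1 and 4), and with Slc26a11 (0.97 and 0.98). Il2ra ran with Slc1a4, a neutral amino acid transporter (0.93 and 0.94), and Chst2, a sulfotransferase (0.93 and 0.96). Il4ra ran with the adhesion molecule Icam1 (0.96 and 0.85) and the NF-kappaB cofactor Bcl3 (0.95 and 0.88), and Il21r with Casz1 (0.93 and 0.91) and the AP-1 gene Junb (0.92 and 0.81). Il12rb1 ran with the cell cycle kinase Cdk4 (0.95 and 0.97) and Rars2 (0.94 and 0.95), and Il15ra with the p53 target Aen (0.95 and 0.96) and Bcap29 (0.94 and 0.96). For Il2rb they were Irak2 (0.89 and 0.84) and Cep170b (0.89 and 0.73), and for Il2rg Cd53 (0.92 and 0.88) and Parp8 (0.92 and 0.79). For Il12rb2 the closest was Ddx3x (0.90 and 0.91), and for Il18r1 they were Cyp4v3 (0.93 and 0.84) and F2rl1 (0.93 and 0.85). Among the chains themselves the neighbours Il4ra and Il21r ran most alike (0.89 and 0.88), and the neighbours Il2ra and Il15ra gave 0.82 and 0.83.

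Among other cytokine receptors more fell than rose from 6h on. Of 23 tested (25 listed), 7, 4, 3 and 1 rose and 3, 10, 12 and 14 fell in KO cells at 2h, 6h, 12h and 24h, and 6, 4, 3 and 2 rose and 3, 13, 9 and 10 fell in WT cells. Of all genes 39.9%, 49.2%, 52.8% and 58.7% were called in KO cells at these times and 30.2%, 39.9%, 39.4% and 44.1% in WT cells. In the fit without WT mice 1 and 4, 10, 4, 3 and 2 rose and 8, 13, 13 and 16 fell in KO cells and 6, 4, 2 and 1 rose and 9, 13, 14 and 14 fell in WT cells. That fit called 57.6%, 64.6%, 67.1% and 71.2% of all genes in KO cells and 49.7%, 59.8%, 60.2% and 64.6% in WT cells. The median log2 change of the 23 at 24h was -1.13 in KO cells and -0.92 in WT cells, while that of all genes was 0.022 and -0.076. The interferon-gamma receptor chain Ifngr1 was highest at 2h: at 0h, 2h and 24h KO mice had 227 to 342, 1028 to 1280.1 and 36.8 to 45.6 CPM, and WT mice 2, 3 and 5 had 187 to 207, 719.8 to 827 and 32.3 to 34.4 CPM. Its log2 change was 2.08 at 2h and -2.71 at 24h in KO cells, and 1.82 and -1.89 in WT cells, all called. All were called again without WT mice 1 and 4 (2.05 and -2.71 in KO cells, 1.98 and -2.56 in WT cells). Tgfbr3, a co-receptor for TGF-beta, fell at 6h, with a log2 change of -2.88 (adjusted p = 2.0e-07) in KO cells and -2.91 (adjusted p = 3.0e-07) in WT cells. Without those mice it was -2.90 (adjusted p = 3.7e-14) in KO cells and -4.08 (adjusted p = 3.6e-14) in WT cells. Between genotypes 3, 2, 3, 1 and 0 were higher in KO cells at 0h, 2h, 6h, 12h and 24h by edgeR over all libraries, and 0 lower. Of all genes 7.93%, 11.8%, 10.1%, 13.1% and 0.0451% were called in either direction. In the fit without WT mice 1 and 4 the counts were 3, 1, 2, 5 and 0 higher and 4, 0, 0, 2 and 0 lower, against 22.4%, 4.1%, 4.16%, 23% and 0.0453% of all genes in either direction. Il1rl1, the interleukin-33 receptor and a relative of Il18r1, had 2.61 to 12.0 CPM in KO mice and 1.09 to 1.84 CPM in WT mice 2, 3 and 5 at 12h, a log2 difference of 2.33 (adjusted p = 0.015) over all libraries and 2.23 (adjusted p = 0.0095) without WT mice 1 and 4.

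Of 9 ligands tested (12 listed), 3, 4, 3 and 2 rose and 1, 0, 1 and 1 fell in KO cells at 2h, 6h, 12h and 24h, and 2, 4, 5 and 5 rose and 0, 0, 0 and 0 fell in WT cells. Without WT mice 1 and 4, where 8 were tested, 4, 3, 3 and 3 rose and 1, 0, 1 and 2 fell in KO cells and 2, 2, 3 and 3 rose and 0, 0, 1 and 0 fell in WT cells. The shares of all genes called are those given for the other cytokine receptors. Their median log2 change at 6h was 1.63 in KO cells and 2.90 in WT cells, and 1.404 and 2.03 without those mice. Il2, the ligand of the Il2ra, Il2rb and Il2rg receptor, was near 0 in naive cells. At 0h, 2h and 6h KO mice had 0 to 0.158, 4.01 to 7.65 and 64.9 to 117 CPM of it, and WT mice 2, 3 and 5 had 0.0389 to 0.129, 1.95 to 3.52 and 38.3 to 44.8 CPM. At 6h these ranges did not overlap, and the log2 difference of KO against WT was 0.96 (adjusted p = 0.056) without WT mice 1 and 4, not called. At 12h it was 0.87 (adjusted p = 0.032), and over all libraries it was 1.57 (adjusted p = 0.074) at 6h and 1.18 (adjusted p = 0.18) at 12h. Il15, the ligand held by Il15ra, was rare and higher in naive KO cells, at 1.05 to 2.60 CPM against 0.289 to 0.933 CPM in naive WT mice 2, 3 and 5, a log2 difference of 2.17 (adjusted p = 0.0098) over all libraries and 1.69 (adjusted p = 0.013) without WT mice 1 and 4. Of the 5 partner chains, all tested, 0, 1, 0 and 0 rose and 0, 0, 1 and 1 fell in KO cells at 2h, 6h, 12h and 24h, and 0, 1, 0 and 0 rose and 0, 0, 1 and 1 fell in WT cells. The counts without WT mice 1 and 4 were 0, 1, 1 and 0 higher and 0, 1, 2 and 3 lower in KO cells, and 0, 1, 0 and 0 higher and 0, 0, 1 and 1 lower in WT cells. Crlf2 of the TSLP receptor was the 1 that rose in KO cells, with 0.96 (adjusted p = 0.0084) at 6h over all libraries and 0.93 (adjusted p = 5.2e-06) without those mice. Il13ra1, which pairs with Il4ra, fell at 24h, with -2.68 (adjusted p = 4.9e-04) in KO cells and -2.49 (adjusted p = 0.0019) in WT cells over all libraries. Without those mice it was -2.68 (adjusted p = 8.0e-05) in KO cells and -3.09 (adjusted p = 5.5e-04) in WT cells. Its naive level was 0 to 2.22 CPM in KO mice and 0.867 to 1.42 CPM in WT mice 2, 3 and 5.

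Of the 17 JAK, STAT and adaptor genes, all tested, 7, 5, 3 and 2 rose and 4, 3, 2 and 3 fell in KO cells at 2h, 6h, 12h and 24h, and 5, 3, 4 and 5 rose and 4, 6, 8 and 5 fell in WT cells. In the fit without WT mice 1 and 4, 10, 6, 4 and 4 rose and 5, 5, 7 and 9 fell in KO cells and 7, 5, 3 and 4 rose and 5, 10, 11 and 8 fell in WT cells. The shares of all genes called in both fits are those given above. Their median log2 change at 2h was 0.44 in KO cells and 0.26 in WT cells, while that of all genes was -0.079 and -0.083. Stat5a, which carries the signals of interleukin-2, interleukin-7 and interleukin-15, rose at 2h by 1.73 (adjusted p = 2.0e-08) in KO cells and 1.10 (adjusted p = 1.0e-04) in WT cells and stood higher at 24h as well (1.48 and 1.17). Without WT mice 1 and 4 its 2h changes were 1.71 (adjusted p = 2.6e-13) in KO cells and 1.87 (adjusted p = 4.1e-11) in WT cells. At 24h they were 1.49 and 1.46, both called. Irs2, an adaptor of the interleukin-4 receptor, had a peak at 2h like Il4ra, with 76.7 to 127 CPM in KO mice and 78.9 to 118 CPM in WT mice 2, 3 and 5, against 13.4 to 22.8 and 10.3 to 12.6 CPM at 6h. Jak2, a kinase of the interleukin-12 receptor, rose at 6h by 2.11 (adjusted p = 1.1e-07) in KO cells and 2.01 (adjusted p = 4.3e-07) in WT cells, and by 2.08 (adjusted p = 8.1e-14) and 2.21 (adjusted p = 1.5e-11) without those mice. Between genotypes 1, 2, 3, 3 and 0 of these genes were higher in KO cells at the 5 times over all libraries, and 0 were lower. Of all genes 7.93%, 11.8%, 10.1%, 13.1% and 0.0451% were called in either direction at these times. At 12h without WT mice 1 and 4 the count was 9 higher and 1 lower, against 23% of all genes in either direction. Stat5a differed at 12h by 0.64 (adjusted p = 0.04) with the 2 mice and 0.64 (adjusted p = 0.0021) without them.

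**Figure D5:**
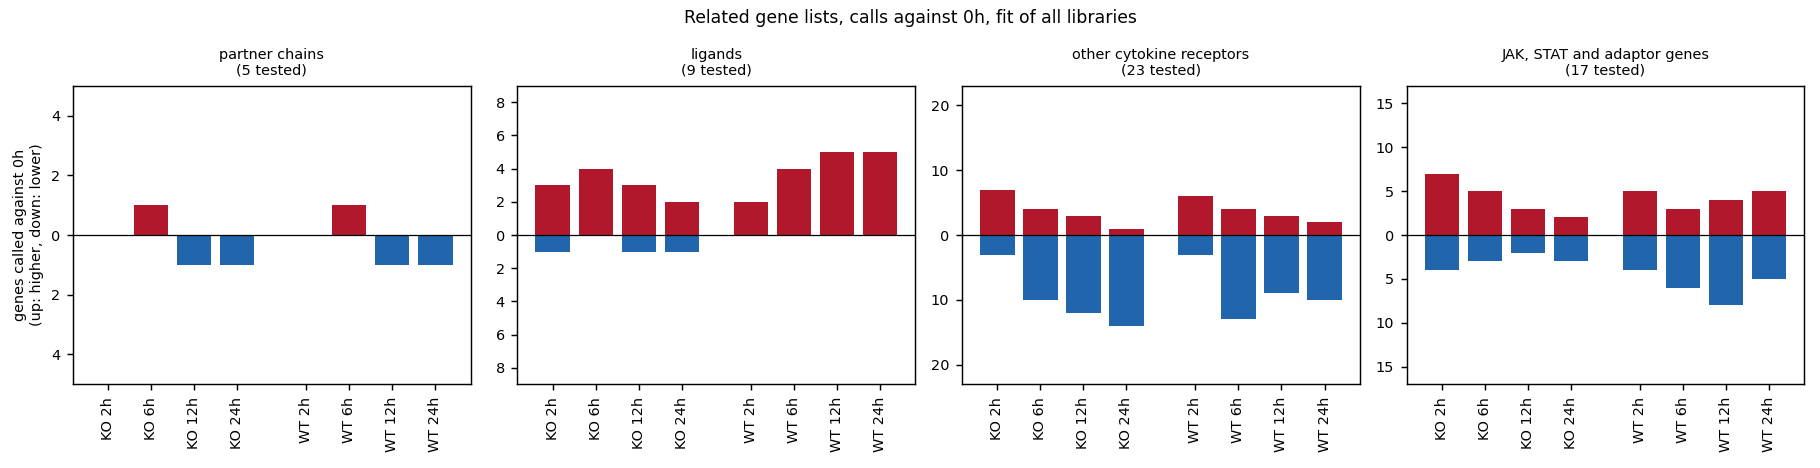
Number of genes called against 0h in 4 lists of related genes over all libraries, higher genes as bars upward and lower genes as bars downward, at 2h, 6h, 12h and 24h in KO and then WT cells; each vertical axis spans the number tested. Other cytokine receptors turn from 7 higher and 3 lower at 2h in KO cells to 1 higher and 14 lower at 24h.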

How the data were processed

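The deposited table holds raw read counts per Ensembl gene, 1 column per library, for poly(A) mRNA of 50 libraries. Per the submitters' processing notes the authors used CASAVA 1.8.2, STAR 2.4, featureCounts 1.4.6 and the build GRCm38, and the annotation release and strand setting of those counts are not given in the sources used here. Symbols, coordinates and exon lengths were taken from GENCODE M21 (GRCm38), which named 21583 of 21647 genes. Upstream windows are RefSeq's, on GRCm38.p6.

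Counts were tested in R 4.3.3 with edgeR 4.0.16 as 10 means of genotype and time. Settings were TMM, filterByExpr with a minimum count of 10, glmQLFit with robust dispersion and glmQLFTest. Benjamini-Hochberg adjustment was over the 13294 genes tested. This main fit treated the libraries of 1 mouse as independent. All 10 groups shared 1 estimate of the spread, so tests within KO cells also depend on the WT libraries. The methods were checked on simulated data, with the dispersions of the fit over all libraries. For KO at 24h against 0h, 34.3% of genes changed by a log2 of 1 and 65.7% of those changed by 2 were called. For KO against WT at 24h these were 38.4% and 67.7%. Of unchanged genes 0.031% and 0.0155% were called. In the simulation 200 genes were changed, in KO at 24h alone, and libraries were drawn independently. In the data 58.7% of genes were called for KO at 24h against 0h, and libraries of 1 mouse correlate. The simulated rates therefore do not carry over to the data. A change that was not called over all libraries can still have been missed. CPM were computed from the TMM-scaled library sizes, and correlations used log2 CPM with a prior count of 2. Other settings were DESeq2 1.42.0, limma 3.58.1 (voom with mouse as a random block), edgeR with mouse as a fixed block, other size factors, other filters, fits of the groups compared alone, fits without WT mice 1 and 4, and leaving out each mouse. The combinations of 2 or 3 of these choices were added after the data were seen.

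The labels give libraries of 1 animal the same number. Deviations from the group means correlated between libraries of the same mouse at a mean of 0.212 to 0.356 in KO mice and 0.415 to 0.638 in WT mice, so the numbers pair libraries within a genotype. The numbers do not pair KO with WT mice, where the mean was -0.197 to 0.139. No 2 replicate libraries were identical.

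All 10 chains are named whatever their values. Of the related genes, lists are counted and up to 4 genes per comparison with the smallest p among those called could be named; for each chain the 2 tested genes with a symbol and the highest Pearson correlation are named. The chains, lists and tests were chosen with earlier results of these data known. The gene targeted in the KO mice, the check of genotype labels from its counts, and a few other genes that these rules would name are not reported here.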

Additional observations from a re-analysis of the deposited data

Results flagged for a closer look

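Single libraries stood far from the other 4 of their group by Dixon's test in 13 of the 100 groups of chain, genotype and time, and chance alone marks about 1 in 20 such groups. Of these, 5 were WT mouse 1, which also held high immature thymocyte and proliferation genes at 0h. At 24h it was lowest for Il2ra (399 CPM), Il4ra (128 CPM) and Il21r (223 CPM) and highest for Il7r (47.6 CPM), and at 12h it was lowest for Il12rb2 (12.7 CPM). KO mouse 5 was lowest for Il7r at 0h (402 CPM) and at 2h (348 CPM). It was highest for Il15ra at 2h (14.7 CPM), for Il12rb1 at 2h (7.54 CPM) and for Il21r at 12h (358 CPM). KO mouse 2 was highest for Il4ra at 2h (785 CPM), and KO mouse 3 lowest for Il12rb2 at 0h (3.33 CPM) and at 6h (73.6 CPM).

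The change of Il12rb2 from 0h differed between KO and WT cells by the interaction test of edgeR over all libraries. The log2 differences, KO minus WT, were 3.08 at 6h and 3.12 at 12h, and without WT mice 1 and 4 they were 0.42 and 0.64, not called.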

How the results depend on the processing

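Counts here are tests of the 10 chains called at an adjusted p under 0.05. KO changes from 0h gave 21 of 40, and 19 to 30 under all settings except voom with a random block without WT mice 1 and 4 (32). WT changes gave 18 of 40, but 10 with only the groups compared, 32 without WT mice 1 and 4 and 33 with the random block and without them. KO against WT gave 4 of 50, but 2 with no filter on low counts, 12 without WT mice 1 and 4, 16 with only the groups compared and without them, and 12 with the random block and without them. It gave 0 to 6 when 1 mouse was left out. The interaction gave 2 of 40, but 1 with library totals and no scaling factor, 0 with only the groups compared, 1 with the random block, 9 without WT mice 1 and 4, and 9 with the random block and without them; leaving out 1 mouse gave 0 to 3. Other pairs of times gave 41 of 120, but 68 with only the groups compared, 79 without WT mice 1 and 4, 95 with both choices and 91 with the random block and without them. With mouse as a fixed replicate block, which pairs the libraries of an animal, the counts were 24 for KO changes, 27 for WT changes, 2 for the interaction and 56 for other pairs; KO against WT could not be fitted so. Among the single tests 284 kept their direction and side of the threshold with DESeq2, and 6 more were called.

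Signs turned only in fits without WT mice 1 and 4, and the cause was not tested. Without them, and with the random block as well, Il2ra at 0h in KO against WT was 3.82 and 3.66, its interaction was -3.53 and -3.36 at 6h and -3.60 and -3.44 at 24h, and Il12rb2 at 12h against 0h in WT was 2.33 and 2.72. The Il2ra interaction was -3.04 at 2h without them. At 12h it was -3.30 without them, -3.36 with only the groups compared and -3.13 with the random block. In the same 3 fits Il12rb2 at 0h in KO against WT was 0.50, 0.56 and 0.86, and Il12rb1 at 2h was 1.05, 1.19 and 1.18. With only the groups compared and without them, Il2rb in WT at 24h against 2h was -0.42, and Il2ra in WT at 24h against 6h was -0.22.

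Groups held 3 to 5 mice, and the smallest library had 9571625 reads. The dispersion over all genes was 0.214 with all libraries and 0.0648 without WT mice 1 and 4.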
